A study of Mus musculus with 45 samples.

Results

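The 8 genes Sucnr1, Ffar1, Ffar2, Ffar3, Ffar4, Tas1r1, Tas1r3 and Vmn2r26 encode receptors for succinate, fatty acids, tastants and, for Vmn2r26, a pheromone-type ligand, and were taken by name from a table of 47729 genes. They were followed in bulk RNA-seq of sorted small intestinal tuft cells from male C57BL/6J mice, 5 weeks old on arrival and housed at thermoneutrality, with 1 mouse per library. Mice shared cages and were killed on consecutive days, with 1 cage of each group per day. The labels give neither cage nor day, so mice are treated as independent. Standard errors and p-values therefore do not cover cage or day effects. Mice received a reference fat diet (RFD, 10% fat) or a lard-based high fat diet (HFD, 60% fat), which gave 11 RFD and 11 HFD libraries at 9 weeks and 11 RFD and 12 HFD libraries in a second set. The labels give 9 weeks for all 45 libraries, but the methods describe 9 and 22 weeks of feeding, so the second set is treated here as the 22-week mice. Feeding time and set cannot be told apart. The sort kept EpCAM+ CD45+ Siglec-F+ cells by the labels, whereas the methods also describe CD45 as used to leave out M cells.

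Tuft cells are rare chemosensory cells of the gut lining that use a taste-like signalling cascade, in which a receptor coupled to a G protein opens the cation channel encoded by Trpm5. In the small intestine they are known for sensing succinate, a product of microbes and parasites, through the receptor encoded by Sucnr1, and for starting a type 2 immune response through IL-25. Free fatty acid receptors are also known from enteroendocrine cells, the hormone-producing neighbours of tuft cells. In bulk RNA of a sort, fewer tuft cells among the sorted cells and less of a transcript per tuft cell cannot be told apart.

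Libraries held between 189340 and 4690213 reads assigned to genes, and 4 of the 45 had less than 50% of their set's median total. The presence of tuft cell RNA was checked on 15 tuft cell markers. All of them passed the filter on low reads (more than 5 reads in at least 6 libraries), and none was at 0 in every library of a group. Dclk1, a kinase that marks tuft cells, ranged from 5.55 to 1674.53 TPM (a level per length), with a median of 803.26 TPM. The tuft marker score, the mean log2 CPM (counts scaled to library size) of the 15 markers, ran from 4.42 to 10.15 in HFD mice and from 7.16 to 10.26 in RFD mice at 9 weeks. It ran from 6.04 to 10.35 in HFD mice and from 7.88 to 10.61 in RFD mice at 22 weeks. The score was therefore uneven among the libraries, and was lowest in HFD mouse 80 of the 9-week set. These markers do not measure purity, and RNA of other cells was high. Fabp1 of enterocytes had a median of 20374.7 TPM and Defa24 of Paneth cells 18045 TPM. Summed tuft, enterocyte and Paneth markers had medians of 19114.5, 12030 and 2947 CPM in RFD mice at 9 weeks. In HFD mice at 9 weeks these were 7954, 8778 and 27515 CPM. At 22 weeks they were 29206, 21099 and 1771 CPM (RFD) and 21599, 22501.5 and 12499 CPM (HFD).

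3 levels of detection were seen among the 8 receptors. Ffar3 and Sucnr1 had a read in 45 of 45 libraries and Vmn2r26 in 43, while Ffar2 had one in 34, Tas1r3 in 29 and Ffar4 in 26. Ffar1 had a read in 15 libraries, 50 reads in all, and Tas1r1 in 9 libraries, 15 reads in all. The large family of olfactory receptor genes served as a background. The median of 1060 such genes had a read in 9 libraries, and the highest, Olfr613, in 33. No olfactory receptor gene reached the 34 libraries of Ffar2, 4 reached the 29 of Tas1r3 and 10 the 26 of Ffar4. By contrast, 221 reached the 15 of Ffar1 and 541 the 9 of Tas1r1, so these last receptors were not detectable above that background at this depth. The 0 reads of Tas1r1 in the 11 RFD libraries at 9 weeks allow a level of up to 0.129 CPM over the group, a limit of 3 reads that covers counting error only. Ffar1 and Tas1r1 missed the filter, and the other 6 receptors were tested.

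**Figure D1:**
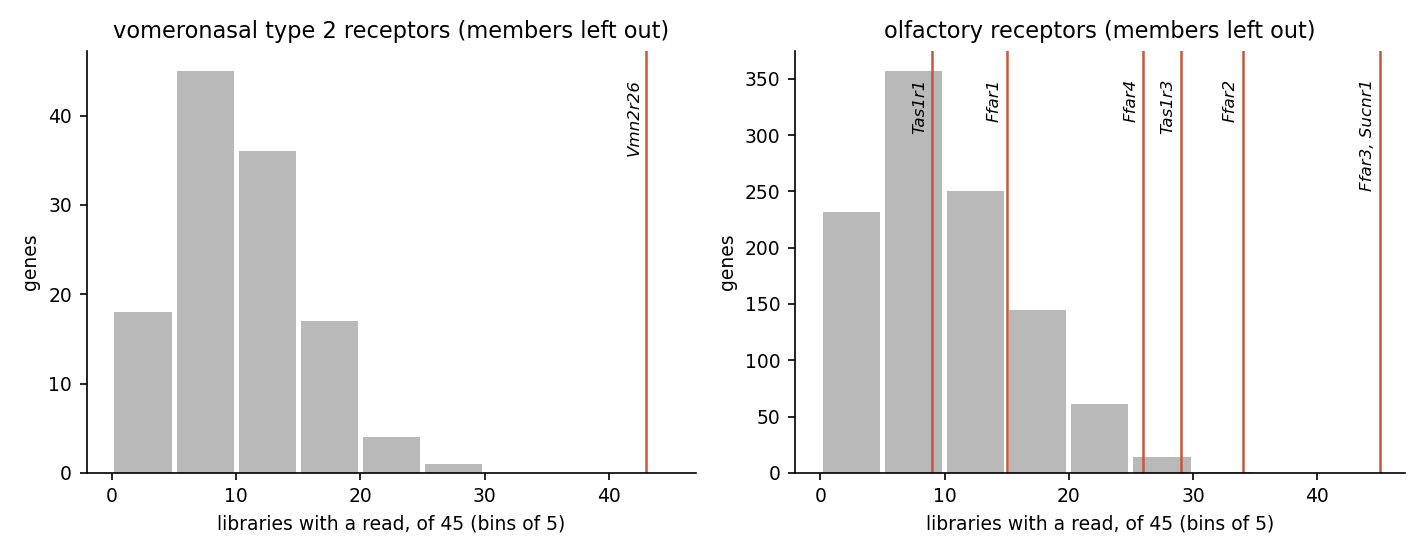
Number of genes (y axis) by how many of the 45 libraries held at least 1 read (x axis, bins of 5), for 121 vomeronasal type 2 receptor genes (left, Vmn2r26 left out) and 1060 olfactory receptor genes (right). Red lines mark the receptors: Vmn2r26 at 43, Ffar3 and Sucnr1 at 45 and Ffar2 at 34 lie beyond every background gene, whereas Ffar1 at 15 and Tas1r1 at 9 lie within the bars.

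Levels between genes were compared in TPM. The median over 45 libraries was 168.87 TPM for Ffar3, 61.91 for Sucnr1, 7.9 for Vmn2r26, 1.66 for Ffar2, 0.75 for Ffar4, 0.35 for Tas1r3 and 0 for both Ffar1 and Tas1r1. Ffar3 exceeded Sucnr1 in 44 libraries, and Sucnr1 exceeded Vmn2r26 in 45. Vmn2r26 exceeded Ffar2 in 34 libraries and lay below it in 10, and Ffar2 exceeded Ffar4 in 30 and lay below it in 8. Ffar4 and Tas1r3 were not clearly separated, with Ffar4 above in 22 libraries, below in 13 and equal in 10. Tas1r3 exceeded Tas1r1 in 26 libraries and lay below it in 5, whereas Tas1r1 and Ffar1 were equal in 25. Among 14020 tested genes, 513 had a higher median TPM than Ffar3, 1199 a higher one than Sucnr1 and 5229 a higher one than Vmn2r26.

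For Ffar3, Sucnr1 and Vmn2r26, the receptors read in nearly every library, the 250 bases before the RefSeq start site (GRCm38.p6) are shown. Matches to the octamer ATGCAAAT or its 7-letter core ATGCAAA are in capitals. The octamer is the classical motif of POU factors, and Pou2f3, one of the 15 markers, is the POU factor known to specify tuft cells.
Sucnr1, chr3:60081619-60081868, plus strand: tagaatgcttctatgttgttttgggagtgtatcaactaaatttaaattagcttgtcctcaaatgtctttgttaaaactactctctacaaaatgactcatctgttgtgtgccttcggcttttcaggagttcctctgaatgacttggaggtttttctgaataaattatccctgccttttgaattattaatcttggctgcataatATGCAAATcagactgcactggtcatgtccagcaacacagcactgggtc
Ffar3, chr7:30856179-30856428, minus strand: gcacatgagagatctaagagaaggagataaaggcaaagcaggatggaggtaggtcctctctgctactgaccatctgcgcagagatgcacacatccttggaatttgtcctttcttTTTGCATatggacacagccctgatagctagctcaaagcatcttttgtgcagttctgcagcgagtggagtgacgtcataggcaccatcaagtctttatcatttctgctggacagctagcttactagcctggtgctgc
Vmn2r26, chr6:124024508-124024757, plus strand: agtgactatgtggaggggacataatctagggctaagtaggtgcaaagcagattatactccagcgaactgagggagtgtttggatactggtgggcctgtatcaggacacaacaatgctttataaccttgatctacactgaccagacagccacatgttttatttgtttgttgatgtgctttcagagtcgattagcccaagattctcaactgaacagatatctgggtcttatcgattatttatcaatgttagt
The Sucnr1 window held the whole octamer, starting 48 bases before the start site, and the Ffar3 window held the core on the other strand, TTTGCAT, starting 136 bases before it. Neither set of letters was in the window of Vmn2r26 or of the other 5 receptors. On either strand the octamer was in 1.6% and the core, which the octamer contains, in 4.12% of 32851 promoters of the same length. The levels of Sucnr1, Ffar3 and also Vmn2r26, which has no match, moved with tuft markers, as described further on. Whether a POU factor binds these windows was not tested.

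Sucnr1 (ENSMUSG00000027762, chr3:60081869-60087566, plus strand, GRCm38) encodes the succinate receptor. In RFD mice at 9 weeks its lowest, median and highest levels were 5.36, 48.02 and 115.03 TPM, and in HFD mice 0.15, 16.08 and 125.5 TPM. In RFD mice at 22 weeks they were 14.11, 106.51 and 189.96 TPM, and in HFD mice 3, 70.8 and 128.9 TPM. The groups overlapped at both times, although 9 of 11 HFD mice at 9 weeks and 11 of 12 at 22 weeks lay below the RFD median in CPM. At least as many HFD mice lay below the RFD median for 19.3% of all tested genes at 9 weeks and for 7.82% at 22 weeks. The log2 fold change in HFD over RFD was -0.98 (SE 0.56, 95% interval -2.13 to 0.17) at 9 weeks, with an adjusted p of 0.369. At 22 weeks it was -0.82 (SE 0.33, 95% interval -1.49 to -0.14), with p = 0.0199 before and 0.384 after edgeR's adjustment over all genes, so the call was not made at either time. These and the following adjusted p-values come from the quasi-likelihood test of edgeR after the Benjamini-Hochberg method, with calls made under 0.1.

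The 9-week result depended on 1 library. HFD mouse 64, at 125.5 TPM, was the only HFD mouse at 9 weeks above the highest RFD mouse in CPM, and its tuft score of 10.15 was the highest of its group. Without it the log2 fold change of Sucnr1 was -1.53 and passed the threshold (adjusted p = 0.0632, edgeR). That fit called 14.2% of all tested genes (1996 of 14020), against 3.32% with every library, so the gain in calls was not particular to Sucnr1. The remaining HFD libraries at 9 weeks lay between 0.15 and 51.29 TPM. Within the numbering series of the mice, which may mark rounds of the experiment, the HFD minus RFD difference in mean log2 CPM at 9 weeks was -2.53 in series A (mice 1 to 8), -1.09 in series B (multiples of 10) and -0.01 in series C (21 to 64). At 22 weeks it was -1.29, -0.53 and -0.69 in the same order, lower in HFD mice in each series. RFD mouse 84 (9 weeks, 115.03 TPM) and HFD mouse 65 (22 weeks) fall in no series and are left out of these differences. Levels also differed between series: at 9 weeks the RFD means of Sucnr1 were 59.2, 6.58 and 55.5 TPM in A, B and C. With the series as a term its 9-week log2 fold change was -0.93 (SE 0.43, p = 0.0401, adjusted p = 0.270, edgeR), not called.

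Ffar3 (ENSMUSG00000019429, chr7:30854330-30856178, minus strand, GRCm38) encodes a receptor for short-chain fatty acids, the products of fibre fermentation. In RFD mice at 9 weeks its lowest, median and highest levels were 13.67, 168.87 and 211.06 TPM, and in HFD mice 0.72, 47.15 and 234.39 TPM. In RFD mice at 22 weeks they were 56.69, 211.78 and 356.34 TPM, and in HFD mice 8.06, 218.75 and 316.7 TPM. At 9 weeks the bulk of HFD mice lay low, 9 of 11 below the RFD median in CPM (as for Sucnr1, 19.3% of all tested genes reached this), and at 22 weeks the groups lay over each other, with 8 of 12 HFD mice below that median. For Ffar3 the HFD over RFD change in log2 was -0.90 (SE 0.51, adjusted p = 0.367) at 9 weeks and -0.27 (SE 0.34, 95% interval -0.96 to 0.42, adjusted p = 0.837) at 22 weeks, by edgeR. The within-series differences at 9 weeks were -2.04, -0.93 and -0.21 in series A, B and C, so series A carried the largest. At 22 weeks they were -0.68, -0.13 and -0.28 in the same order.

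Ffar2, the other short-chain fatty acid receptor, and Ffar4, a receptor for long-chain fatty acids, were low. Their log2 fold changes lay above 0 at both times, with intervals that all held 0. Ffar2 (chr7:30818348-30823775, minus strand) had a median of 1.57 TPM (0 to 6.2) in RFD mice and 3.36 TPM (0 to 7.88) in HFD mice at 9 weeks. At 22 weeks its medians were 0.83 TPM (0 to 5.87) and 1.25 TPM (0 to 8.02). Ffar4 (chr19:38097071-38114263, plus strand) had a median of 0 TPM (0 to 4.62) in RFD mice and 1.82 TPM (0 to 6.21) in HFD mice at 9 weeks, and of 0.57 TPM (0 to 1.85) and 1.07 TPM (0 to 2.49) at 22 weeks. Every one of these groups held libraries without a read, and all pairs of groups overlapped. The log2 fold change was 1.13 (SE 0.80) at 9 weeks and 0.29 (SE 0.80) at 22 weeks for Ffar2, and 0.88 (SE 1.06) and 0.78 (SE 0.83) for Ffar4, with adjusted p from 0.473 to 0.941 by edgeR. Within series A, B and C the Ffar2 difference was -0.51, 0.24 and 2.16 at 9 weeks and 0.28, -0.16 and 0.11 at 22 weeks. For Ffar4 it was 1.06, -0.13 and 0.75 at 9 weeks and 0.94, 0.09 and 0.07 at 22 weeks. The highest Ffar4 level, 6.21 TPM, was in HFD mouse 8 of the 9-week set, which also had the highest enteroendocrine marker score of all 45 libraries (6.35) and a tuft score of 6.92, the 41st from the top. HFD mouse 50 of the same set held 5.33 TPM of Ffar4 at an enteroendocrine score of 1.99. The libraries with the highest Ffar2, Tas1r3 and Ffar1 levels stood 34th, 14th and 31st from the top by that score. The part of enteroendocrine RNA in these values was not tested.

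Ffar1 (chr7:30857390-30861564, minus strand), the receptor for medium- and long-chain fatty acids, lies 1211 bases from Ffar3 in the same cluster. It was read in 2 of 11 RFD and 2 of 11 HFD libraries at 9 weeks, and in 7 of 11 RFD and 4 of 12 HFD libraries at 22 weeks. Its highest level was 2.82 TPM, from 8 reads in HFD mouse 65 of the 22-week set, whose library total was among the 4 low ones.

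The taste receptor subunits were at the lower end. Tas1r3 (chr4:155859268-155863362, minus strand), the subunit shared by sweet and umami receptors, had a median of 0.51 TPM (0 to 1.56) in RFD mice and 0 TPM (0 to 1.48) in HFD mice at 9 weeks. It was read in 8 of 11 RFD and 3 of 11 HFD libraries at 9 weeks, and in 10 of 11 RFD and 8 of 12 HFD libraries at 22 weeks, where the medians were 0.41 TPM (0 to 1.62) and 0.35 TPM (0 to 1.51). The change on HFD, in log2, was -1.47 (SE 1.08, adjusted p = 0.491) and -0.25 (SE 0.70, adjusted p = 0.945) by edgeR, and both intervals held 0. The 9-week value moved to -2.50 without HFD mouse 64 (p = 0.0340, adjusted p = 0.168, edgeR) and to -3.32 with the enteroendocrine marker score as a covariate (p = 0.00465, adjusted p = 0.115, edgeR), still not called. Tas1r3 overlaps Dvl1 on the opposite strand, and the protocol does not state that strand was kept, so reads of the overlap cannot be told apart. Tas1r1 (chr4:152027914-152038568, minus strand), the umami partner, never had more than 3 reads in a library. None of the 36 other sweet and bitter taste receptor genes examined, Tas1r2 and the Tas2r family, passed the filter.

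**Figure D2:**
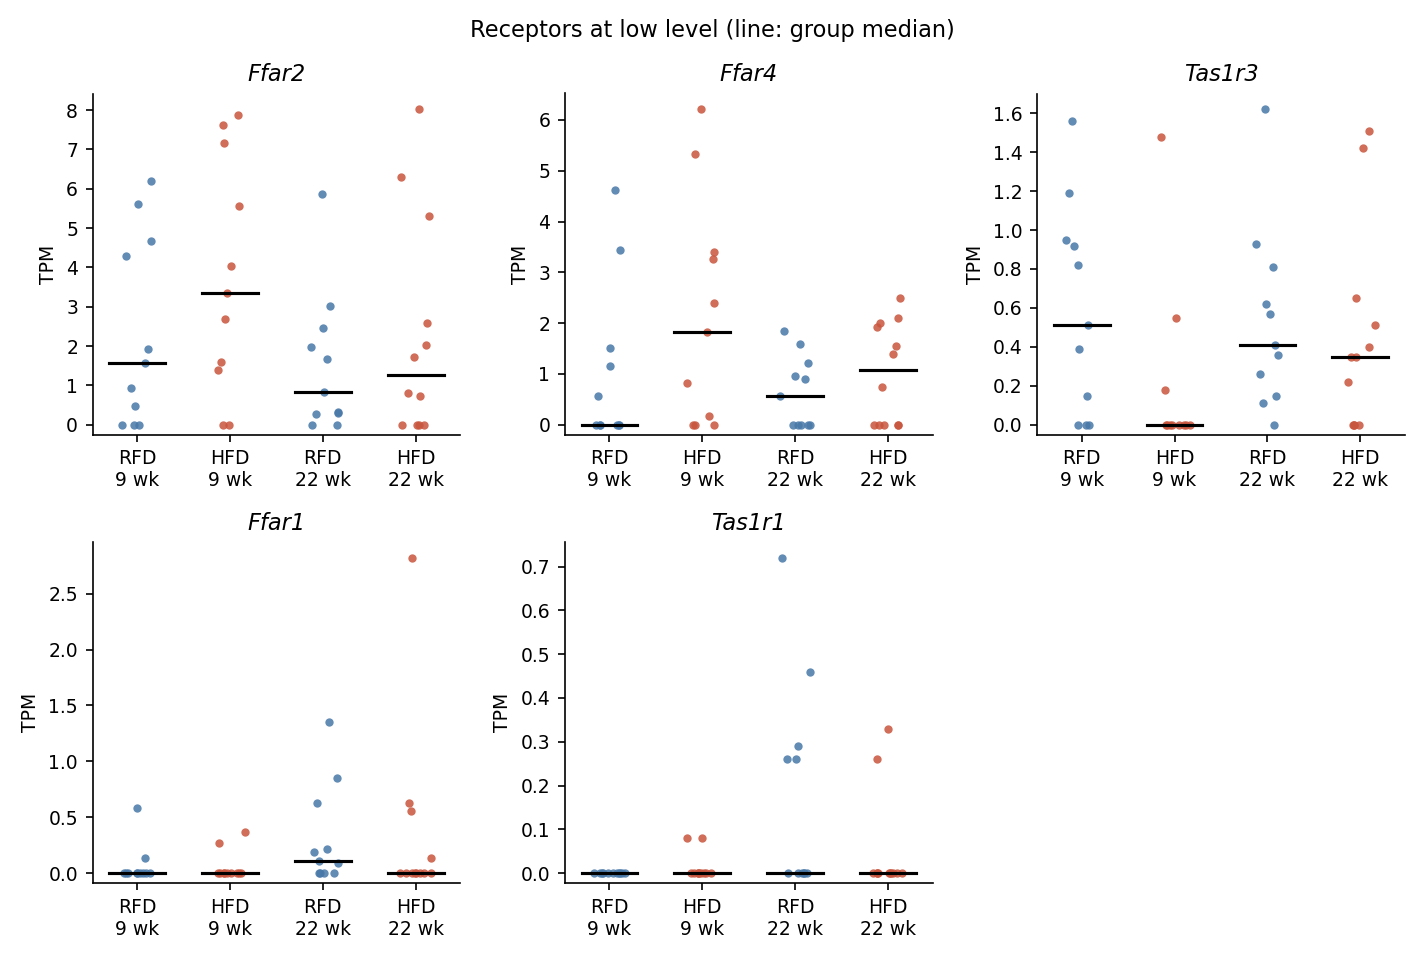
TPM (y axis) of the 5 receptors at low level in each library (points) by diet and feeding time, with the group median as a line. Zeros occur in every group of every panel, and no group stands clear of its counterpart on the other diet.

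Vmn2r26 (ENSMUSG00000096630, chr6:124024568-124065806, plus strand, GRCm38) belongs to the vomeronasal type 2 receptors, a family known from pheromone-sensing neurons. It held 45.7% of the 122 family genes' reads in these libraries, and the next gene, Vmn2r10, held 1.71%. In RFD mice at 9 weeks its lowest, median and highest levels were 1, 8.46 and 12.51 TPM, and in HFD mice 0, 2.46 and 19.77 TPM. In RFD mice at 22 weeks they were 3.2, 17.11 and 25.59 TPM, and in HFD mice 0.72, 7.58 and 16.54 TPM. In CPM, 10 of 11 HFD mice at 9 weeks and 11 of 12 at 22 weeks lay below the RFD median, counts reached or passed by 10% and 7.82% of all tested genes, and the groups still overlapped. The log2 fold change of Vmn2r26 at 9 weeks was -0.95 (SE 0.59), with an adjusted p of 0.407 by edgeR. At 22 weeks it was -0.96 (SE 0.36, 95% interval -1.70 to -0.22), with p = 0.0123 before and 0.319 after adjustment by edgeR. Without HFD mouse 64, the highest HFD library at 9 weeks with 19.77 TPM, the 9-week value was -1.56 and passed the threshold (adjusted p = 0.0745, edgeR), as 14.2% of all tested genes did in that fit. Within series A, B and C it differed by -2.51, -2.07 and -0.21 in the 9-week set, and by -0.45, -1.18 and -1.01 in the 22-week set. Reads of Vmn2r26 were split with other genes in 8 of the 43 libraries that had them, so a small share of its count is an estimate.

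**Figure D3:**
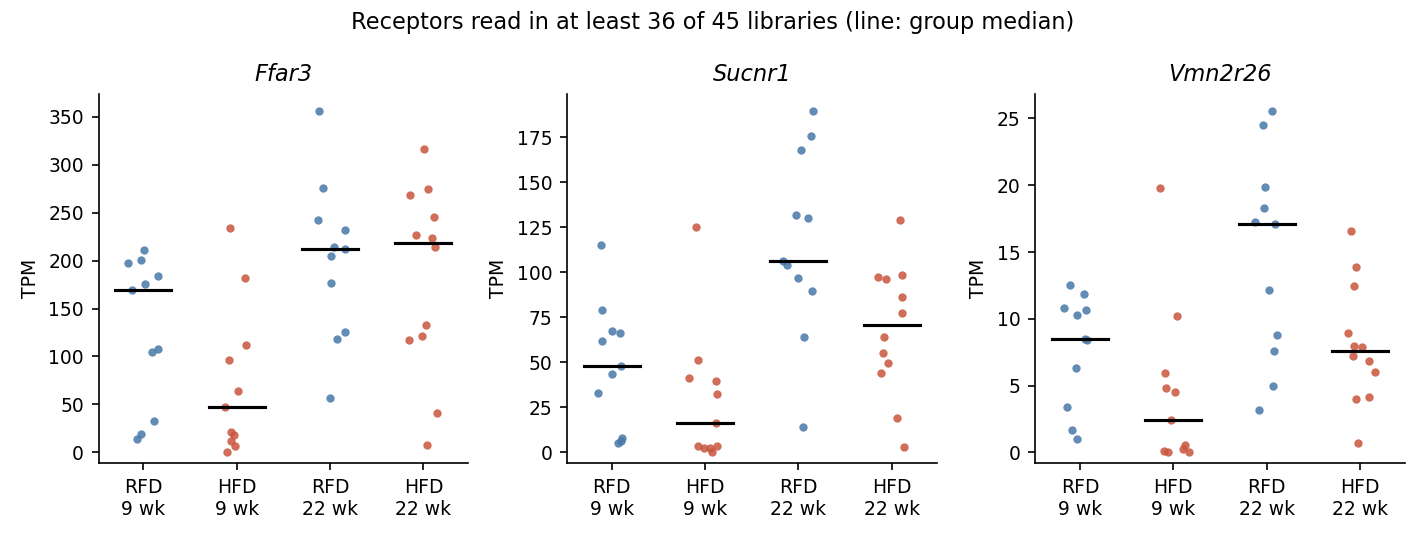
TPM (y axis) of Ffar3, Sucnr1 and Vmn2r26 in each library (points) by diet and feeding time, with the group median as a line. At 9 weeks the HFD libraries reach down to 0.72, 0.15 and 0 TPM, and mouse 64 gives the highest of the 9-week HFD values in each panel.

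Of the 6 receptors tested, 0 were called at either time by edgeR, beside 3.32% of all 14020 genes at 9 weeks and 0.792% at 22 weeks. At an unadjusted p under 0.05 there were 0 of 6 at 9 weeks and 2 of 6 at 22 weeks, beside 18% and 10.3% of all genes. The median log2 fold change of the 6 was -0.93 at 9 weeks and -0.26 at 22 weeks, and that of all tested genes was -0.05 and -0.03. The 15 tuft markers had medians of -0.96 and -0.44, with 15 of 15 and 14 of 15 below 0 and 0 called. Of the 6 receptors, 4 were below 0 at each time, so the lower values were not particular to them. DESeq2 and a test written after SAM-seq, the method of the study, called 0 of the members for which they gave an adjusted p. The difference between the diet effects of the sets was tested as an interaction, and 0 of the 6 passed, with an adjusted p of 1.00 for each, beside 0% of all genes. At an unadjusted p under 0.05 stood 0 of the 6 and 3.22% of all genes (451). The interaction for Ffar3 was 0.69 (95% interval -0.59 to 1.98, log2), which leaves room for a sizeable difference between the sets in either direction.

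**Figure D4:**
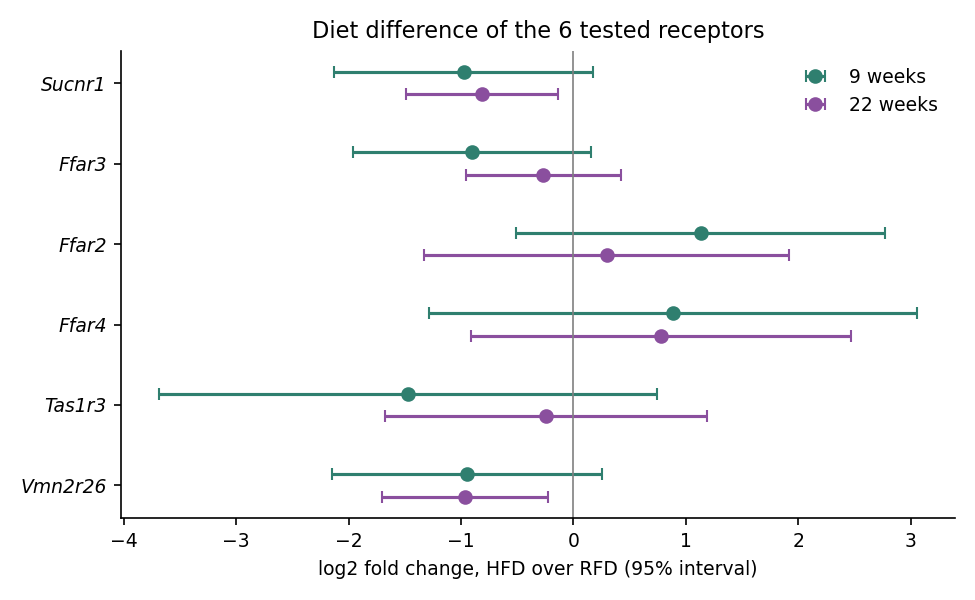
Log2 fold change, HFD over RFD (x axis, points), with 95% intervals (bars) for the 6 tested receptors at 9 and 22 weeks. Only the 22-week intervals of Sucnr1 (-1.49 to -0.14) and Vmn2r26 (-1.70 to -0.22) leave out 0, before adjustment over all genes.

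The levels of the 3 abundant receptors, whose promoter windows are printed above, moved with the tuft marker score. After taking off the diet group means, Ffar3 and the tuft score correlated with Pearson's r = 0.97 and Spearman's rho = 0.94 over 22 libraries at 9 weeks, and with r = 0.97 and rho = 0.91 over 23 libraries at 22 weeks. For Sucnr1, r was 0.96 and rho 0.91 at 9 weeks and r 0.79 and rho 0.58 at 22 weeks. For Vmn2r26, r was 0.87 and rho 0.84 at 9 weeks and r 0.81 and rho 0.61 at 22 weeks. These 6 relations passed in a family of 12, with adjusted permutation p of at most 0.00798 for rho and 9.4e-04 for r. Leaving out the pair of libraries farthest from the median score gave r between 0.66 and 0.97 on log2 CPM. On log2(TPM + 1) it gave 0.47 for Sucnr1 and 0.58 for Vmn2r26 at 22 weeks, and between 0.90 and 0.98 for the remaining relations. Within number series, rho for Ffar3 lay between 0.66 and 0.96. For Sucnr1 it lay between 0.31 and 1, and for Vmn2r26 it ran from -0.02 in series C at 22 weeks to 0.95 in series A at 22 weeks. Against the enteroendocrine score the 6 relations gave rho between -0.32 and 0.04, with adjusted p of at least 0.235.

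**Figure D5:**
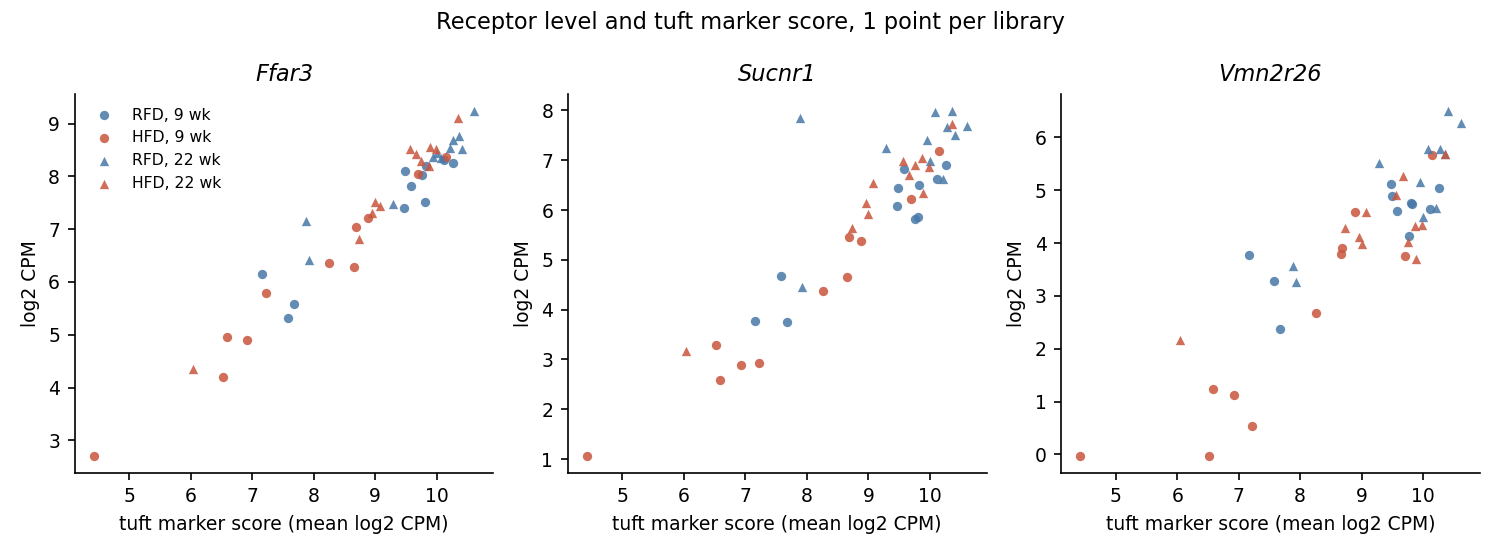
Log2 CPM of Ffar3, Sucnr1 and Vmn2r26 (y axes) against the tuft marker score, the mean log2 CPM of 15 tuft markers (x axis), with 1 point per library, colour for diet and shape for feeding time. Points rise together from a score of 4.42 to 10.61, and RFD mouse 3 of the 22-week set lies above the others for Sucnr1 at a score of 7.88.

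The tuft score itself was lower on HFD by 1.34 at 9 weeks (9.16 ± 1.11 in RFD and 7.82 ± 1.66 in HFD mice, SD, n = 11 each, permutation p = 0.0378, adjusted p = 0.202 over 16 tests). At 22 weeks it was 9.73 ± 0.96 (SD, n = 11) in RFD and 9.24 ± 1.12 (SD, n = 12) in HFD mice, with an adjusted permutation p of 0.591. With the score as a covariate, the 9-week log2 fold change became -0.13 for Sucnr1, -0.22 for Vmn2r26 and 0.02 for Ffar3, each with an adjusted p above 0.9 by edgeR. That fit called 19 of all tested genes, against 466 without the score. At 22 weeks the covariate left Sucnr1 at -0.73 (SE 0.27, p = 0.0106, adjusted p = 0.290, edgeR) and Vmn2r26 at -0.51 (SE 0.27), and moved Ffar3 to 0.05. Of the HFD mice, 9 of 11 at 9 weeks and 11 of 12 at 22 weeks lay below the RFD median of the score. Each of these receptors also moved with the score, so diet and score cannot be fully told apart in these fits. As a share of the summed TPM of the tuft markers, Ffar3 had group medians from 1.23% to 1.46% and single libraries from 0.529% to 1.86%. Sucnr1 had group medians of 0.412% (RFD) and 0.385% (HFD) at 9 weeks and of 0.687% and 0.568% at 22 weeks. Vmn2r26 had 0.0704% and 0.037% at 9 weeks and 0.0937% and 0.0796% at 22 weeks.

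The log2 ratio of one receptor to another within a library was also compared, a comparison chosen after the values had been seen. The ratio of Sucnr1 to Ffar3 (CPM + 0.5) was -1.60 ± 0.51 in RFD and -1.86 ± 0.55 in HFD mice (SD, n = 11 each) at 9 weeks. At 22 weeks it was -0.97 ± 0.79 (SD, n = 11) in RFD and -1.43 ± 0.35 (SD, n = 12) in HFD mice. Of the 12 HFD mice at 22 weeks, 11 lay below the RFD median. The permutation p was 0.252 and 0.0786, and 0.303 and 0.236 after adjustment over 6 ratio tests. Without RFD mouse 3, where Sucnr1 reached 189.96 TPM beside 125.44 TPM of Ffar3, the 22-week difference was -0.30 (permutation p = 0.163). That mouse gave the library in which Sucnr1 exceeded Ffar3. The ratio of Vmn2r26 to Ffar3 differed by -0.75 at 9 weeks (permutation p = 0.0508, adjusted p = 0.236) and by -0.46 at 22 weeks (adjusted permutation p = 0.270).

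Other cell types in the sort were followed by their markers. At 22 weeks 4 of 13 tested enteroendocrine markers were called lower on HFD, and 0 at 9 weeks. They were the hormone genes Nts (mean 83.7 CPM in RFD and 0.131 CPM in HFD mice), Cck (93.9 and 0.528 CPM), Gcg (22.5 and 0.335 CPM) and Pyy (12.8 CPM in RFD mice and no read in the 12 HFD libraries). All 4 kept the call in each of the 23 fits that left out 1 library, but of 11 other fits only Nts was called in all, Cck in 8 and Gcg and Pyy in 5 each. The enteroendocrine score at 22 weeks was 3.14 ± 1.48 (SD, n = 11) in RFD and 1.51 ± 0.45 (SD, n = 12) in HFD mice, with an adjusted permutation p of 0.0352 over 16 tests. The summed level of these markers ranged from 129 to 1100 CPM in RFD and from 82.0 to 336 CPM in HFD mice at 22 weeks, and Pyy was the 1 of the 14 at 0 in every HFD library. With this score as a covariate Sucnr1 at 22 weeks was at -1.21 (SE 0.42) and passed the threshold (adjusted p = 0.0947, edgeR). That fit called 8.89% of all tested genes (1247), against 0.792% without the score. Vmn2r26 was at -0.87 in it (adjusted p = 0.338, edgeR). All 12 HFD mice lay below the RFD median of this score, so diet and score cannot be fully told apart in that fit. Of 12 enterocyte markers, Rbp2, a retinol-binding protein, was called higher at both times, and at 22 weeks Mttp, of lipoprotein assembly, was higher and Slc5a1, the glucose transporter, lower. Mttp kept its call in 16 of the 23 fits that left out 1 library and in 7 of 11 others, and Slc5a1 in 23 of 23 and 8 of 11. For Rbp2 these were 22 of 22 and 7 of 11 at 9 weeks, and 23 of 23 and 11 of 11 at 22 weeks. None of the tested goblet (8), Paneth (8), T cell (6), M cell (4) or eosinophil and myeloid (4) markers was called. Without passing the test, the log2 fold change was above 0 for 8 of 8 Paneth (median 2.29) and 7 of 8 goblet markers (median 0.43) at 9 weeks and for 8 of 8 of each at 22 weeks, and below 0 for 6 of 6 T cell markers at both times (medians -1.44 and -1.47). The T cell score at 9 weeks was 1.36 ± 1.01 in RFD and 0.468 ± 0.796 in HFD mice (SD, n = 11 each), with a permutation p of 0.0321 and an adjusted p of 0.202, the latter equal to that of the tuft score. The summed Paneth markers ranged from 54.8 to 115813 CPM in RFD and from 114 to 667402 CPM in HFD mice at 9 weeks. The gate genes Epcam, Ptprc and Siglecf were not called, and the part of other cells in the receptor values was not tested beyond the covariates above.

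Genes of the signalling cascade and other metabolite receptors were followed too. Not all passed the filter on low reads, and 0 of those tested were called at either time. Of 10 genes of taste-type transduction 8 were tested and 0 called at either time. Trpm5, the cation channel, had a median of 518.85 TPM and log2 fold changes of -1.14 (SE 0.61) and -0.37 (SE 0.33), Gng13 of -0.05 and 0.31, and Gnb1, a G protein beta subunit, of -0.22 and 0.22. Of 10 G protein alpha subunit and arrestin genes 8 were tested and 0 called, with Gnas, Gnai2 and Gna11 the most abundant at 116.06, 60.68 and 53.01 TPM. Gnai2, an inhibitory alpha subunit, had log2 fold changes of -0.86 (SE 0.43) and -0.63 (SE 0.29). Of 14 other fatty acid and metabolite receptors 4 were tested and 0 called, with Lpar5, a lysophosphatidic acid receptor, at a median of 12.67 TPM, Gpr55 at 4.75 and Gpr35 at 2.44 TPM.

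Of 11 genes of succinate metabolism and transport, all were tested and 1 was called. Suclg2, a subunit of the enzyme that forms succinate from succinyl-CoA, was at 79.8 CPM in RFD and 142 CPM in HFD mice at 9 weeks, which is 0.82 in log2 (SE 0.26) and passed narrowly (edgeR, adjusted p = 0.0995). It kept the call in 5 of the 22 fits that left out 1 library. At 22 weeks its log2 fold change was 0.06 (SE 0.33). The succinate dehydrogenase genes Sdhb and Sdhd, at medians of 380.58 and 180.07 TPM, had log2 fold changes of 0.12 (SE 0.19) and 0.65 (SE 0.25) at 9 weeks and were not called.

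The genes whose levels were most like those of the 3 abundant receptors were listed by Spearman's rho of log2 CPM over 45 libraries, group means taken off, as a description. For Ffar3 they were Ms4a8a (0.95), Krt23 (0.94), Tmem176a (0.94), Fcna (0.93) and Tuba1a (0.93). For Sucnr1 they were Acot7 (0.89), Skap2 (0.87), Ethe1 (0.86), Lrrc42 (0.86) and Samd14 (0.85), and for Vmn2r26 Snrnp25 (0.86), Plcg2 (0.85), S100a11 (0.84), Krt18 (0.84) and Krt23 (0.84). Ffar3 stood 13th in the order for Sucnr1 (0.84), and Vmn2r26 64th (0.80). The tuft score differed among these libraries, and Dclk1 stood 107th in the order for Sucnr1 (0.78).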

How the data were processed

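The data are bulk Smart-seq2 RNA-seq of sorted small intestinal tuft cells, 45 libraries from 45 mice. Per the labels and the methods, reads were trimmed with cutadapt 1.15, aligned with STAR 2.6.0 and counted per gene with RSEM on GRCm38. The authors deposited expected counts and TPM per gene. The authors also re-weighted counts for contaminating cell types before testing, which was not repeated here. 24 of the 69 count columns matched no sample used here and were left out.

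Expected counts were rounded, and 47729 genes were named by GENCODE vM21. Of 36145 genes with a read and a unique symbol, 14020 with more than 5 reads in at least 6 of 45 libraries were tested. Diets were compared within each set with edgeR 4.0.16 (TMM, robust quasi-likelihood test, Benjamini-Hochberg, called under 0.1). Alternatives were DESeq2 1.42.0, limma 3.58.1 on deposited TPM (log2(TPM + 1) or log2(TPM + 0.1)), a test written after SAM-seq, no filter, marker scores or number series as terms, low totals left out, 1 fit for all libraries, and each library left out in turn. Scores were the mean log2 CPM (prior count 2) of a marker list's tested genes. Correlations and single values were tested by permutation with 100000 resamples in Python with scipy. The tests were checked on simulated data. For edgeR and the SAM-seq style test, genes were simulated independently of one another. Genes here moved together with the tuft score, so that check does not show the error rates in these data.

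The receptors and gene lists were chosen with earlier results of these data known. Genes were named by rule: all 8 receptors, for other lists the called genes and up to 3 of highest median TPM, and the 5 genes most like each receptor read in at least 36 libraries. For marker lists only called genes and those a value turns on are named. Libraries are single mice that shared cages, and number series are not stated to be batches or cages. Depth is one limit on what can be said of Ffar1, Ffar4, Tas1r1 and Tas1r3, which held few reads per library.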

Additional observations from a re-analysis of the deposited data

How the results depend on the processing

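No paired analysis was possible because RFD and HFD mice of a set share no replicate number. The direction of Sucnr1 and Vmn2r26 was kept at both times in every alternative that was run. Leaving out 1 library moved Sucnr1 between -1.53 and -0.85 at 9 weeks and between -0.98 and -0.70 at 22 weeks, Vmn2r26 between -1.56 and -0.82 and between -1.15 and -0.79, and Ffar3 between -1.24 and -0.78 and between -0.41 and -0.14. Leaving out HFD mouse 64 brought Sucnr1 and Vmn2r26 past the threshold at 9 weeks, which no other single library did, in a fit that called 14.2% of all tested genes. With the enteroendocrine score as a covariate Sucnr1 passed at 22 weeks (-1.21), in a fit that called 8.89% of all tested genes. Diet and this score cannot be fully told apart at 22 weeks. The tuft score as a covariate turned Ffar3 to 0.019 at 9 and 0.047 at 22 weeks, Ffar4 to -0.18 at 9 weeks and Tas1r3 to 0.071 at 22 weeks. Diet and the tuft score cannot be fully told apart either. The enteroendocrine score turned Tas1r3 to 0.15 and Gcg, itself one of the genes in that score, to 1.16 at 22 weeks. Leaving out 1 library moved Tas1r3 at 22 weeks between -0.49 and 0.10 (without RFD mouse 30) and Ffar2 between -0.016 (without HFD mouse 7) and 0.61.

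Interactions near 0 changed sign: Sucnr1 to -0.38 (tuft score) and -0.033 (enteroendocrine score), Vmn2r26 to -0.13 and -0.18, and Ffar4 to 0.22, 0.84 and, with DESeq2, 0.0062. On log2(TPM + 1), rho with the enteroendocrine score at 9 weeks became 0.12 for Sucnr1 and 0.11 for Vmn2r26. The cause was not tested.

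Over all genes 466 were called at 9 weeks and 111 at 22 weeks. DESeq2 called 1534 and 351, no filter 1698 and 434, the SAM-seq style test 1958 and 628, limma 9 and 51 on log2(TPM + 1), 5 and 31 on log2(TPM + 0.1), and 3 and 23 on log2(TPM + 1) with no filter. The tuft score left 19 at 9 weeks. At 22 weeks the number series gave 187, the enteroendocrine score 1247 and 1 fit for all libraries 63. Without 1 library the counts ran from 59 (without HFD mouse 6) to 1996 (without HFD mouse 64) at 9 weeks and from 58 (without RFD mouse 10) to 667 (without RFD mouse 1) at 22 weeks. The interaction called 0 genes with edgeR, DESeq2 and limma on the 14020 tested genes (451 at an unadjusted p under 0.05 with edgeR), and 65 with edgeR and no filter. Genes called higher on HFD were 60.1% of calls at 9 weeks, and turned to a minority with low totals left out (46.2%), in 1 fit for all libraries (45.3%) and without RFD mouse 40 (46.4%), beside 54.2% with DESeq2 and 80.8% with the SAM-seq style test. At 22 weeks they were 55.0%, but 33.9% with no filter, 48.8% without RFD mouse 22 and 76.0% with the SAM-seq style test.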
